A study of Mus musculus with 6 samples.

Results

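The genes described here carry a cell through mitosis: the cyclins and kinases that start it, the checkpoint, centromere, spindle and condensin proteins that separate the chromosomes, and the proteins that divide the cell. They are the rows of a microarray value table whose platform gene symbol is exactly 1 of 49 listed symbols. Of the 49 genes, 47 were measured by a probe set of their own, out of 22180 genes in all. Ccnb1 and Ncapg had none. Expression was compared between Pax7-GFP cells, which are the GFP-positive cells collected by flow cytometry from Pax7 reporter cultures of mouse embryonic stem (ES) cells at 3 weeks of myogenic differentiation, and undifferentiated ES cells. Each group had 3 samples labelled as biological replicates, with 1 array each. The labels name neither the ES lines, the form of the reporter nor any other allele, and whether the ES cells were sorted as well is not stated. The sorting gate was set against undifferentiated cultures of the same reporter line. It keeps cells by fluorescence, so the sorted cells need not be of 1 kind, and the arrays read them together.

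In cycling cells the mitotic genes are switched on late, in G2 and M phase. Cyclin B with Cdk1 starts mitosis, the Aurora and Polo-like kinases build the spindle, and the checkpoint holds the anaphase-promoting complex until every kinetochore is attached. Their transcription is driven by B-Myb (Mybl2) bound to the MuvB complex and then by Foxm1, and in resting cells the DREAM complex holds them off. ES cells divide fast with short gap phases, whereas myoblasts leave the cycle as they form muscle fibres and satellite cells can rest.

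All values below are log2 RMA signals, the deposited scale, on which a step of 1 is 2-fold. Differences are Pax7-GFP minus ES, from limma with Benjamini-Hochberg adjustment over all 22180 genes. A gene was called, and is said to have risen or fallen, at an adjusted p under 0.05 with at least a 2-fold difference. The labels held in the defining markers. Pax7 had signals of 10.91, 10.65 and 11.15 in Pax7-GFP cells, against 5.77, 5.63 and 5.71 in ES cells, and Nanog, a pluripotency factor, had 5.17, 5.26 and 4.96 against 11.93, 12.05 and 12.07. All 9 muscle progenitor markers rose and all 10 pluripotency markers fell. Array medians over all rows lay between 5.61 and 5.69.

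The promoters of these genes share sequence features that the choice of genes did not use. RefSeq promoter windows (GRCm38.p6, 250 bases before to 50 after the annotated start) were found for 40 of the 49 genes, 43 windows in all. They were searched on both strands for TTTGAA or, in its other form, TTCGAA, the letters of the cell cycle genes homology region (CHR) that MuvB complexes bind, for CCAAT, the box bound by NF-Y, and for forms of the E2F site, spelled TTCCCGC, or in other promoters TTGGCGC, or with a changed base TTGCCGC, or as a last form TTCGCGC. Bub3, Prc1 and Ect2 have 2 overlapping windows each, which repeat sites, so a gene was counted once, with a match in any of its windows. CHR letters stood in 30 of the 40 genes, against 45.3% of 117 other mitosis genes, 19.4% of 36 DNA replication genes and 21.7% of all 27025 genes in the table. CCAAT also stood in 30 of the 40 genes, against 58.1% of the other mitosis genes, 63.9% of the replication genes and 41.1% of all genes. Both occurred together in 65.0% of the 40 genes, 29.9% of the other mitosis genes, 13.9% of the replication genes and 8.61% of all genes. E2F letters had another order, at 8 of the 40 genes, 32.5% of the other mitosis genes, 63.9% of the replication genes and 10.9% of all genes. CCAAT and E2F letters overlapped in 2 of the 40 genes, Ccnb1 and Ect2. These shares are descriptions, and their differences were not tested.

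The following windows, 5′ to 3′ along each gene, are shown because their genes cover the range of response: Mki67 and Cdc25b had the largest rises, Mybl2 fell, Cdc20 was lower by less than 2-fold, and Ccnb2 had a difference near 0. Capitals mark the CHR, CCAAT and E2F letters, which read as the reverse complement where the match is on the other strand. Mki67 lies at chr7:135716330-135716629 on the minus strand, Cdc25b at chr2:131186698-131186997 on the plus strand, Mybl2 at chr2:163054385-163054684 on the plus strand, Cdc20 at chr4:118437294-118437593 on the minus strand and Ccnb2 at chr9:70421505-70421804 on the minus strand.
Mki67: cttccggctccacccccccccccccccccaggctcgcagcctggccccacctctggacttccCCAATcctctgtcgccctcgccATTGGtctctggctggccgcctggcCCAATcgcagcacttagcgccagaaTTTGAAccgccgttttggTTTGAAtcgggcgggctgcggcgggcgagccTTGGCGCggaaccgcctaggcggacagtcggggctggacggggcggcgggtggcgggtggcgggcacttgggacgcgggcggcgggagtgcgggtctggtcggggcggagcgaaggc
Cdc25b: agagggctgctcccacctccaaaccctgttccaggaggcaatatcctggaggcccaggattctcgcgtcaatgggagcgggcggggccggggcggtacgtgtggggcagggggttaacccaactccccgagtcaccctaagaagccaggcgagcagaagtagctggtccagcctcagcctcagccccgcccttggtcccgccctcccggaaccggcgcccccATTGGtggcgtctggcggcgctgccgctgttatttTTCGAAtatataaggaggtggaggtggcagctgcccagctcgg
Mybl2: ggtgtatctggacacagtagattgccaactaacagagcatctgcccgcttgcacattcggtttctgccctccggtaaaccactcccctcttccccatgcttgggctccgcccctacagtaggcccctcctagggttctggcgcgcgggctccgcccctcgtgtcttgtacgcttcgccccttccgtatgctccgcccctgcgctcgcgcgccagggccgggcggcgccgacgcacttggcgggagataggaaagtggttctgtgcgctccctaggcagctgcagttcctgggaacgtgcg
Cdc20: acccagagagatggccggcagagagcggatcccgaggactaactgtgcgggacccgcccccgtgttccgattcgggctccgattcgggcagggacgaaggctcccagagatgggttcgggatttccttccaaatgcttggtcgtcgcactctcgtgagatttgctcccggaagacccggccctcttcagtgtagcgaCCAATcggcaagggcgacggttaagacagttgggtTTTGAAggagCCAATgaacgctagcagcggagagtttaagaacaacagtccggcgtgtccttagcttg
Ccnb2: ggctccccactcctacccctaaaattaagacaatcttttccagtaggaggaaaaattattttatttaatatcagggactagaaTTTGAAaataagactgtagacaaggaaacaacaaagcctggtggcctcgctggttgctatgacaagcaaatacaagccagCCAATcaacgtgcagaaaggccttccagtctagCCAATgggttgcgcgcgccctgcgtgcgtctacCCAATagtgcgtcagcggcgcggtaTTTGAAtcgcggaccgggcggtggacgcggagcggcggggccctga
The Mki67 window holds 3 CCAAT boxes upstream of 2 CHR matches, followed by 1 E2F match. The Ccnb2 window holds 3 CCAAT boxes between 2 CHR matches, the second of them just past the start. In the Cdc20 window a CHR match lies between 2 CCAAT boxes, and in the Cdc25b window 1 CCAAT box precedes TTCGAA. None of the searched letters are in the Mybl2 window. Only the exact spellings given above were searched, so this does not exclude sites spelled otherwise. Of the 30 genes with CHR letters, 27 had a match centred within 50 bases of a start, against 67.9% of the other mitosis genes with such letters and 29.3% of all genes with them. Presence of CHR letters went with no single direction of change. The 29 measured genes with CHR letters had differences from -0.89 (Kif2c) to 1.66 (Mki67), with a median of -0.015, and the 9 measured genes without them from -2.95 (Mybl2) to 0.81 (Nuf2), with a median of 0.011. These are letter matches, not measured binding.

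**Figure D1:**
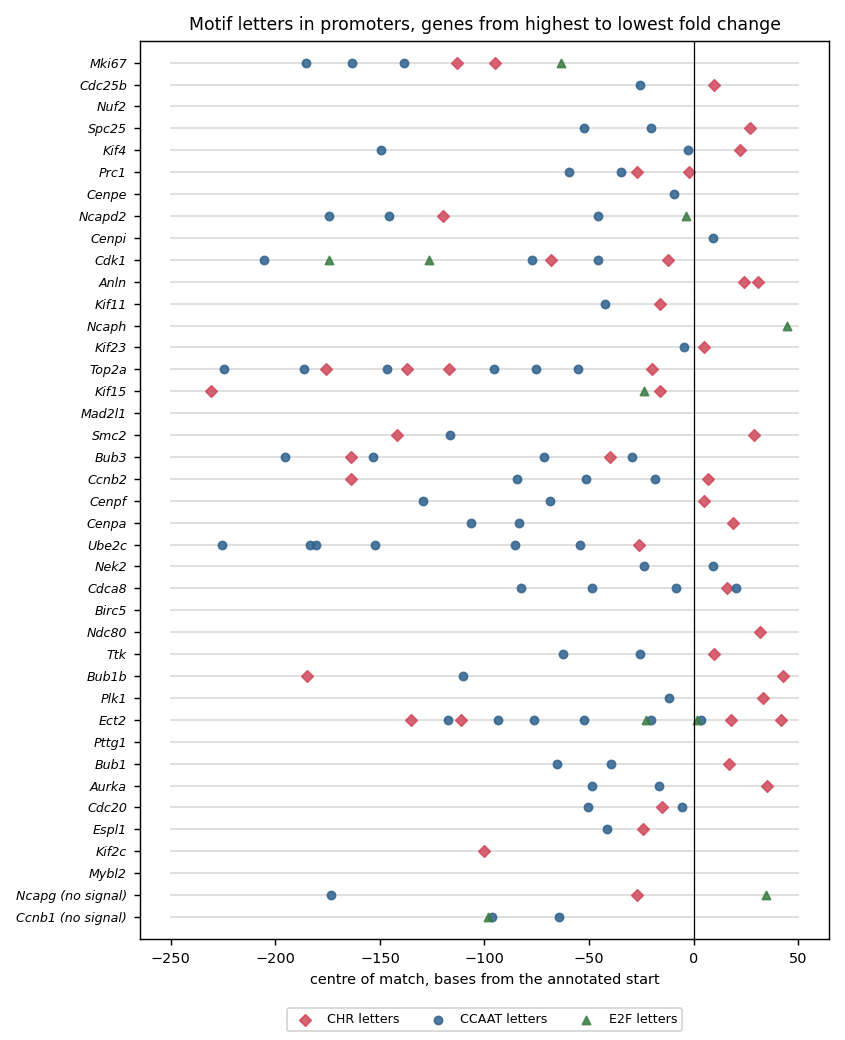
Matches of CHR, CCAAT and E2F letters by distance from the annotated start (x axis, bases) in the promoters of 40 genes, ordered from the highest to the lowest log2 fold change, with the 2 genes without a signal of their own last. CHR matches (diamonds) gather close to the start, within 50 bases of it in 27 of 30 genes, and CCAAT boxes (circles) lie mostly upstream. Sites of Bub3, Prc1 and Ect2 appear once for each of their 2 windows.

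Few of the mitotic genes differed by 2-fold between the sorted cells and ES cells, while many differed by less. Of the 47 genes, 3 rose (Mki67, Cdc25b and Foxm1), 1 fell (Mybl2) and 43 were not called. The called share was 8.51%, beside 14.5% of all genes (7.34% higher and 7.15% lower) and 24.7% of the 11090 genes whose mean signal lay above the median gene, where all 47 stood. Another 18 genes were past the adjusted p threshold with differences under 2-fold, 8 above 0 and 10 below, beside 26.7% of all genes. Together 22 genes (46.8%) passed that threshold, against 41.1% of all genes and 63.7% of those above the median level. The sorted samples lay wholly above the ES samples for 16 genes and wholly below for 16, while 15 overlapped, and the groups were apart for 51.9% of all genes (26.2% higher and 25.6% lower). The median difference was 0.0081, against 0.024 over all genes, with 24 genes above 0 and 23 below. For 38 of the 47 genes (80.9%) the 95% interval of the difference lay within a 2-fold change either way, as it did for 77.9% of all genes and 63.0% of those above the median level, so this share is near the background. Signals of a bulk sample fall alike with fewer cells in mitosis and with less mRNA in each such cell, and the 2 cannot be told apart here.

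**Figure D2:**
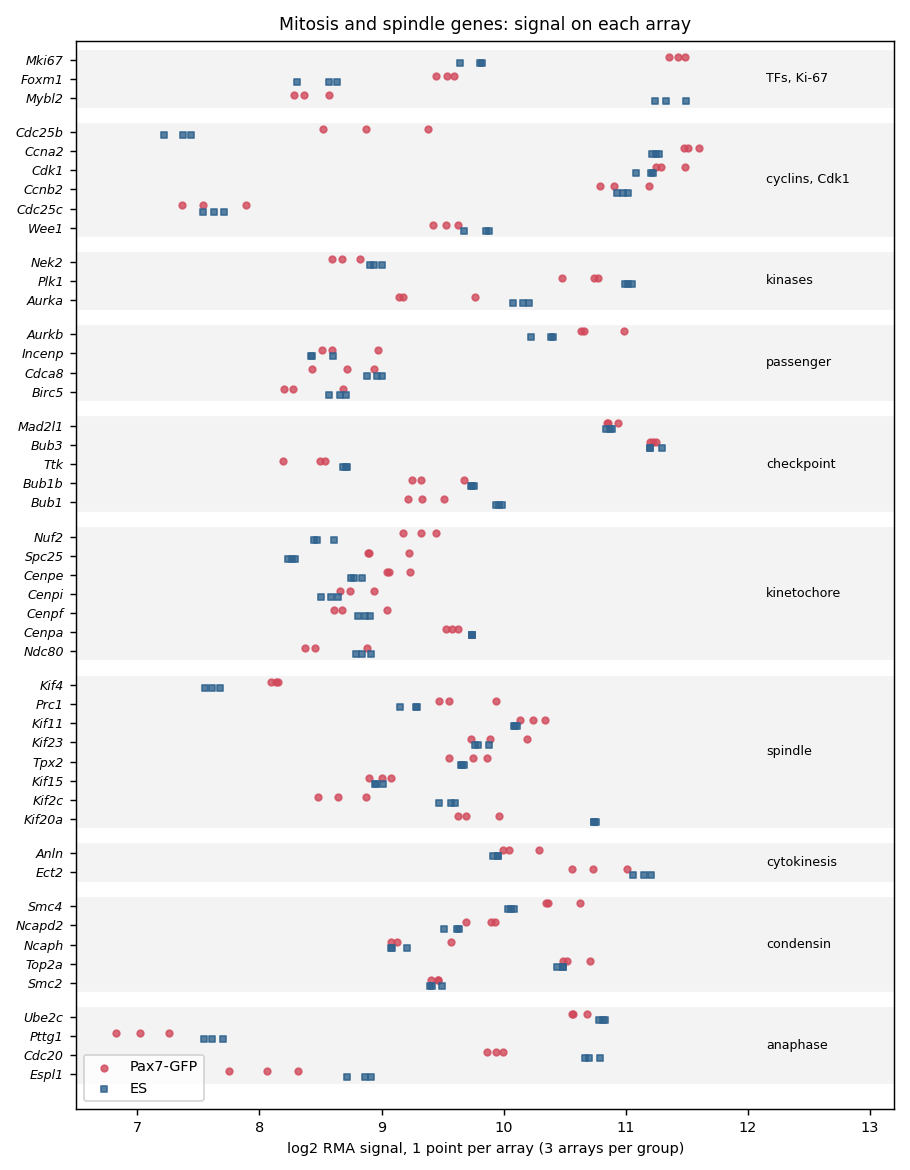
Log2 RMA signal (x axis) of the 47 genes on each array, grouped by role, with Pax7-GFP arrays as circles above ES arrays as squares. Most genes have both groups within a 2-fold step of each other, while Mki67, Cdc25b and Mybl2 have them wide apart. Foxm1 and Kif20a have them about a 2-fold step apart.

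All 3 genes among the transcriptional regulators and Ki-67 were called, 2 higher and 1 lower, beside 14.5% of all genes. A list of 3 genes, chosen with earlier results known, says nothing of such genes at large. Mki67 encodes Ki-67, a protein that coats mitotic chromosomes and the standard antigen of proliferating cells. It had signals of 11.48, 11.43 and 11.35 in Pax7-GFP cells, against 9.64, 9.81 and 9.82 in ES cells. Every sorted sample lay above every ES sample, and the rise was 1.66 (SE 0.088), or 3.17-fold (limma, adjusted p = 1.98e-06). Foxm1, the factor that drives late mitotic genes, had 9.53, 9.44 and 9.59 in Pax7-GFP cells, against 8.31, 8.57 and 8.64 in ES cells. The groups did not overlap, but the rise of 1.02 (SE 0.11, limma adjusted p = 9.73e-05) barely reached the 2-fold minimum and stood at 0.92 without ES replicate 1 and 0.98 without Pax7-GFP replicate 3, where it was not called.

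Mybl2, which encodes B-Myb, had the largest difference of the 47 genes and was the only called fall. Its probe set 17379206 gave 8.37, 8.28 and 8.57 in Pax7-GFP cells, against 11.24, 11.33 and 11.50 in ES cells. The sorted cells lay far below the ES cells, at a ratio of 0.129 (log2 fold change -2.95, SE 0.11, limma, adjusted p = 2.65e-07). A second, dimmer probe set, 17394003, gave 5.74, 5.85 and 6.13 in Pax7-GFP cells, against 7.18, 7.72 and 7.47 in ES cells, a difference of -1.55 (SE 0.15, limma over probe sets, adjusted p = 7.47e-05). Foxm1 and Mybl2 act one after the other on the same promoters, and their signals moved apart. The log2 signal of Foxm1 minus that of Mybl2 was 1.17, 1.16 and 1.03 in Pax7-GFP arrays, against -2.93, -2.76 and -2.86 in ES arrays, a shift of 3.97. This pair and the others set against each other below were chosen after their values were seen, so their shifts carry no test.

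Among the cyclins, Cdk1 and the enzymes that switch Cdk1 on or off, Cdc25b alone was called. Cdc25B is the phosphatase that first activates cyclin B-Cdk1 at the centrosome. It had signals of 9.38, 8.52 and 8.87 in Pax7-GFP cells, against 7.22, 7.44 and 7.37 in ES cells. The groups did not overlap, although the sorted samples spread widely (SD 0.43, the largest of the 47 genes), and the rise was 1.58 (SE 0.19, 2.99-fold, limma, adjusted p = 0.000261). Without Pax7-GFP replicate 1 it was 1.35. Its relative Cdc25c, which completes the activation, had 7.89, 7.37 and 7.54 against 7.54, 7.71 and 7.62 in ES cells, with overlapping groups and a difference of -0.025 (95% interval -0.34 to 0.29).

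The differences of Cdk1, Ccnb2, Ccna2 and Wee1 were at most 0.28 either way, and Ccnb1 was not measured. Cdk1 had 11.48, 11.29 and 11.25 in Pax7-GFP cells, against 11.20, 11.22 and 11.08 in ES cells, a difference of 0.17 (limma, adjusted p = 0.194). Ccnb2, a B-type cyclin, differed by -0.015 with an interval of -0.27 to 0.24, which leaves no room for a 2-fold change. Ccna2, the A-type cyclin of S and G2 phase, was past the p threshold at a small difference of 0.28 (SE 0.078, adjusted p = 0.0189). Wee1, the kinase that holds Cdk1 inactive, differed by -0.28 (SE 0.095, adjusted p = 0.0472).

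The mitotic kinases Aurka, Plk1 and Nek2 all lay below 0, without reaching 2-fold. None was called, beside 14.5% of all genes, and so short a list cannot stand apart from that share. Aurka, which matures centrosomes, had 9.76, 9.17 and 9.14 in Pax7-GFP cells, against 10.07, 10.20 and 10.16 in ES cells. All sorted samples lay below all ES samples, with a difference of -0.79 (SE 0.16, limma, adjusted p = 0.00460), or -0.99 without Pax7-GFP replicate 1. Plk1, the Polo-like kinase, differed by -0.36 (adjusted p = 0.0190), and Nek2, which separates centrosomes, by -0.25 (adjusted p = 0.0527). Aurkb, the Aurora kinase of the chromosomal passenger complex, lay on the other side of 0. It had 10.98, 10.64 and 10.65 in Pax7-GFP cells, against 10.23, 10.39 and 10.41 in ES cells, a difference of 0.42 (SE 0.11, adjusted p = 0.0188). The Aurkb signal minus the Aurka signal was 1.22, 1.46 and 1.51 in Pax7-GFP arrays, against 0.15, 0.19 and 0.25 in ES arrays, a shift of 1.20.

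The partners of Aurora B did not move with it beyond their spread. Incenp, its scaffold, differed by 0.21 (adjusted p = 0.259), and Cdca8, which encodes Borealin, by -0.25 (adjusted p = 0.163). Birc5, which encodes Survivin, had 8.68, 8.20 and 8.28 in Pax7-GFP cells, against 8.66, 8.71 and 8.57 in ES cells. Replicate 1 of the sorted cells lay among the ES samples and the other two below them, for a difference of -0.26 (adjusted p = 0.162). Without that replicate Birc5 was past the p threshold at -0.41 (adjusted p = 0.00538), and Cdca8 at -0.38 (adjusted p = 0.0194). Without Pax7-GFP replicate 2 instead, Birc5 stood at -0.17 and Cdca8 at -0.12, and without replicate 3 at -0.21 and -0.26, not past it.

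Spindle checkpoint genes were not called in either direction, beside 14.5% of all genes that were. In limma 3 of 5 were lower and 0 higher at an unadjusted p under 0.05, a threshold at which 5304 of all 22180 genes were lower and 5127 higher. Mad2l1, which encodes the checkpoint effector Mad2, had 10.93, 10.84 and 10.86 in Pax7-GFP cells, against 10.89, 10.87 and 10.84 in ES cells. Bub3, a scaffold of the checkpoint, had 11.23, 11.20 and 11.25 against 11.20, 11.29 and 11.20. The groups overlapped in both genes, and the intervals, -0.16 to 0.19 for Mad2l1 and -0.18 to 0.17 for Bub3, were among the narrowest. The 3 checkpoint kinases and kinase-like proteins lay lower. Bub1, which primes centromeres, differed by -0.61 (SE 0.094, adjusted p = 0.000921), Bub1b, which encodes BubR1, by -0.33 (adjusted p = 0.0561), and Ttk, which encodes Mps1, by -0.29 (adjusted p = 0.0570). Bub1b and Ttk passed the p threshold without Pax7-GFP replicate 1, at adjusted p = 0.00192 and 0.0385.

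None of the 7 kinetochore genes of the 47 was called, beside 14.5% of all genes, and so short a list cannot stand apart from that share. At an unadjusted limma p under 0.05, 3 were higher and 0 lower, where 5127 of all 22180 genes were higher and 5304 lower. The NDC80 complex, which holds microtubule ends, is built of Ndc80, Nuf2, Spc24 and Spc25. Nuf2 had 9.44, 9.18 and 9.32 in Pax7-GFP cells, against 8.61, 8.47 and 8.45 in ES cells, a difference of 0.81 (SE 0.097, limma, adjusted p = 0.000229). Spc25 differed by 0.74 (SE 0.11, adjusted p = 0.000648), with groups that did not overlap. Ndc80 itself had 8.88, 8.37 and 8.46 against 8.84, 8.92 and 8.79 in ES cells, with overlapping groups and a difference of -0.28 (adjusted p = 0.142, or 0.00335 without Pax7-GFP replicate 1). The fourth subunit, Spc24, is outside the 47 genes and was named after its values were seen. It stood at -0.81 (adjusted p = 0.000592). The Nuf2 signal minus the Ndc80 signal was 0.56, 0.81 and 0.87 in Pax7-GFP arrays, against -0.24, -0.44 and -0.34 in ES arrays.

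The centromere genes Cenpa, Cenpe, Cenpi and Cenpf differed from ES by at most 0.32 either way. This does not hold for centromere genes at large. In a separate list of kinetochore, centromere and checkpoint genes, described below, 4 of 32 fell and 0 rose. Cenpa, the centromeric histone H3, had 9.63, 9.53 and 9.57 in Pax7-GFP cells, against 9.74, 9.74 and 9.74 in ES cells, a difference of -0.16 (adjusted p = 0.124). Cenpe, a kinesin that moves chromosomes to the spindle equator, differed by 0.32 (SE 0.087, adjusted p = 0.0165). Cenpi, a subunit of the constitutive centromere network, differed by 0.20 (adjusted p = 0.143), and Cenpf, a kinetochore protein of G2 and M phase, by -0.083 (adjusted p = 0.650).

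Kinesins and spindle proteins held genes on both sides of 0. None of the 8 was called, beside 14.5% of all genes, and so short a list cannot stand apart from that share. Kif20a, a kinesin of cytokinesis, had 9.96, 9.69 and 9.63 in Pax7-GFP cells, against 10.74, 10.76 and 10.74 in ES cells. It stood just short of the 2-fold minimum, at -0.99 (SE 0.10, limma, adjusted p = 9.77e-05), and was called without Pax7-GFP replicate 1, at -1.09. Kif2c, which encodes the microtubule depolymerase MCAK, had 8.87, 8.48 and 8.64 against 9.57, 9.60 and 9.47 in ES cells, a difference of -0.89 (SE 0.11, adjusted p = 0.000302). On the other side, the chromokinesin Kif4 had 8.15, 8.13 and 8.10 in Pax7-GFP cells, against 7.61, 7.67 and 7.55 in ES cells, a difference of 0.51 (SE 0.078, adjusted p = 0.000844). Prc1, which bundles the microtubules of the central spindle, differed by 0.41 (SE 0.13, adjusted p = 0.0318).

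The other 4 spindle genes did not pass the p threshold. Kif11, the motor that pushes spindle poles apart, differed by 0.14 (adjusted p = 0.225), and Kif15, which can take over that task, by 0.022 (adjusted p = 0.872). Tpx2, an activator of Aurora A, differed by 0.059 (adjusted p = 0.690), and Kif23, the kinesin of the centralspindlin complex, by 0.13 (adjusted p = 0.469). Of the cytokinesis genes, Anln, which encodes the ring scaffold anillin, differed by 0.17 (adjusted p = 0.223). Ect2, the exchange factor that turns on RhoA at the furrow, had 11.01, 10.73 and 10.56 in Pax7-GFP cells, against 11.06, 11.15 and 11.21 in ES cells, a difference of -0.37 (SE 0.12, adjusted p = 0.0394).

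**Figure D3:**
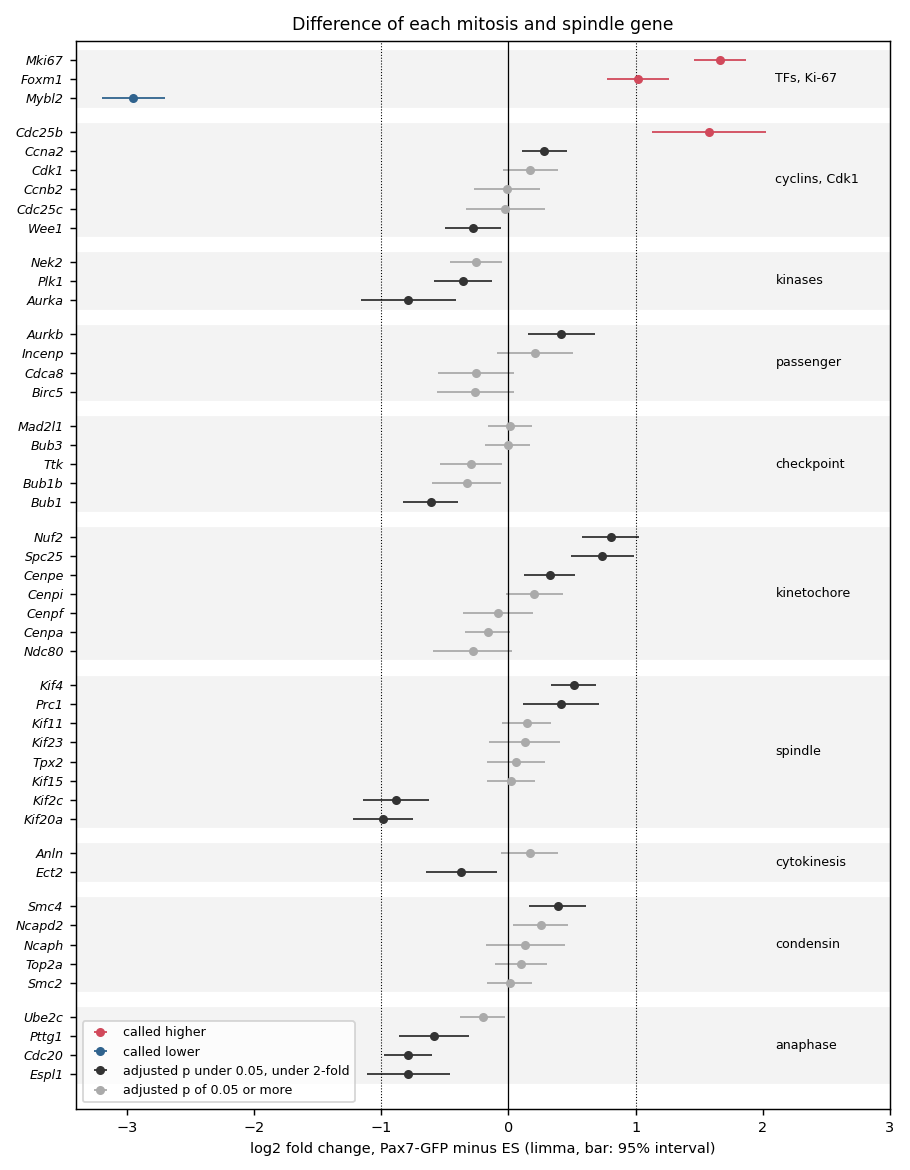
Log2 fold change of each of the 47 genes, Pax7-GFP minus ES (x axis), with its 95% limma interval and dotted lines at a 2-fold difference. Of the 4 called genes 3 lie in the top group, the anaphase genes at the bottom all lie below 0, and the condensin genes all lie above 0.

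Condensin and topoisomerase genes were all slightly above 0, by 0.0081 to 0.39. None of the 5 was called, beside 14.5% of all genes. Smc4, an ATPase subunit of condensin, had 10.62, 10.35 and 10.37 in Pax7-GFP cells, against 10.06, 10.04 and 10.08 in ES cells, a difference of 0.39 (SE 0.097, limma, adjusted p = 0.0118). Its partner Smc2 had 9.46, 9.46 and 9.40 against 9.40, 9.50 and 9.41, with overlapping groups and a difference of 0.0081. The condensin I subunits Ncapd2 and Ncaph differed by 0.25 and 0.13 (adjusted p = 0.0628 and 0.499). Top2a, which untangles chromosomes, differed by 0.099 (adjusted p = 0.434). The 2 probe sets that Top2a shares with Taf1d in the annotation went another way, at -1.44 and -1.47, and cannot be assigned to either gene. The probe set shared by Ncapg and Lcorl differed by -0.065.

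Genes that act at the exit from metaphase were all lower, each by less than 2-fold. Cdc20, which activates the anaphase-promoting complex, had 9.998, 9.860 and 9.941 in Pax7-GFP cells, against 10.67, 10.70 and 10.79 in ES cells. The sorted samples lay below all ES samples, with a difference of -0.79 (SE 0.082, limma, adjusted p = 9.95e-05). Espl1, which encodes separase, the protease that cuts cohesin, had 8.31, 7.75 and 8.06 against 8.71, 8.91 and 8.86 in ES cells, a difference of -0.79 (SE 0.14, adjusted p = 0.00217). Pttg1, which encodes securin, the inhibitor of separase, differed by -0.59 (SE 0.12, adjusted p = 0.00426). Ube2c, the ubiquitin-conjugating enzyme of the complex, differed by -0.20 (adjusted p = 0.0708), or -0.24 without Pax7-GFP replicate 1 (adjusted p = 0.0396).

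The sorted samples did not carry the mitotic signals equally. Pax7-GFP replicate 1 was the highest of the 3 sorted samples for 39 of the 47 genes (83.0%), against 33.8% of all genes and 42.0% of genes above the median level. Replicate 2 was the highest for 2 genes and replicate 3 for 6. On average replicate 1 lay 0.16 above the group mean of each gene, replicate 2 lay 0.10 below it and replicate 3 lay 0.055 below it, while the ES arrays stayed within 0.031 of theirs. All 8 kinesin and spindle genes, all 4 passenger genes and all 4 anaphase genes were highest in replicate 1, whereas Foxm1 and Mybl2 were highest in replicate 3. The median SD of the 47 genes was 0.16 among Pax7-GFP arrays and 0.061 among ES arrays, against 0.14 and 0.084 over all genes.

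Among the marker lists, the fibroblast and pluripotency sums were highest in replicate 1, the latter from dim signals. The summed log2 signal of 10 pluripotency markers was 55.8, 55.3 and 54.0 in Pax7-GFP replicates 1, 2 and 3, against 98.2 to 99.0 in ES arrays. Per marker the sorted samples averaged 5.58, 5.53 and 5.40, under the array medians over all rows. Single markers differed in order, with Klf4 highest in replicate 1 (8.15, 7.85 and 7.40) and Pou5f1 lowest there (6.76, 6.90 and 6.91). The summed log2 signal of 8 fibroblast markers was 69.3, 66.8 and 65.6 in Pax7-GFP replicates 1, 2 and 3, against 51.0 to 53.1 in ES arrays, and 5 of the 8 rose. The summed signal of 9 muscle progenitor markers was the same in replicates 1 and 3, at 94.9, and 93.1 in replicate 2, against 51.6 to 52.3 in ES arrays. Myog, a factor of terminal differentiation, had 11.23, 11.20 and 11.68 in Pax7-GFP cells, against 6.85, 6.42 and 6.32 in ES cells, highest in replicate 3. Where 7.34% of all genes rose and 7.15% fell, 2 of 8 neural markers rose and 4 fell. Of the endothelial markers 1 of 7 rose and 1 fell, and of the haematopoietic markers 2 of 7 fell. The part of any of these in the level of the mitotic genes was not tested. Without replicate 1, 3 of the 47 genes rose, 2 fell (Mybl2 and Kif20a), and 28 were past the p threshold instead of 22. The 6 genes gained were Birc5, Bub1b, Cdca8, Ndc80, Ttk and Ube2c, all lower in Pax7-GFP cells. The share of all genes past that threshold was 43.8% without it and 41.1% with it. Replicate 1 was singled out after it was seen to be the highest for most of the 47 genes. Most differences then shift downward by that choice, here and in the single-gene values above. Without Pax7-GFP replicates 2 and 3 in turn, 22 and 20 genes were past the threshold, and without an ES array 16 to 17.

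**Figure D4:**
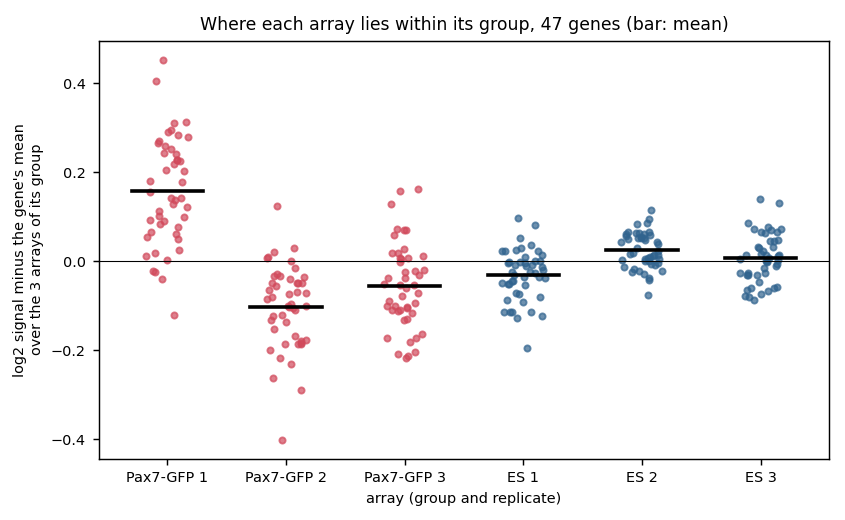
Log2 signal of each of the 47 genes minus its mean over the 3 arrays of its group (y axis), by array, with the mean over genes as a bar. Pax7-GFP replicate 1 lies 0.16 above its group on average, and the ES arrays scatter less.

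A wider set of mitosis genes, in 6 lists outside the 47, held rises and falls as well. Of 132 measured genes 7 rose, 13 fell, 61 were past the p threshold alone and 51 were not past it. The called share was 15.2%, near the 14.5% of all genes and below the 24.7% of genes above the median level. Of 32 kinetochore, centromere and checkpoint genes 4 fell (12.5% called) and 0 rose (limma; 4 higher and 17 lower at an unadjusted p under 0.05). The largest falls were those of Cenph at -1.56 and Cenpt at -1.34, both of the inner kinetochore, while Cenpk, of the same network and named after its values were seen, stood at 0.71 (adjusted p = 0.00186). Cep55, needed for the final cut between daughter cells, stood at -1.51 and Gtse1, a microtubule-bound regulator of p53, at -1.53. Pcnt, the centrosome protein pericentrin, stood at -1.25.

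Rises came from 3 of the 6 lists, all of which also held falls. Top2b, the paralog of Top2a, was counted in the list of condensin II and cohesin genes and was the only rise there. It had 9.27, 9.20 and 9.49 in Pax7-GFP cells, against 7.16, 7.26 and 7.18 in ES cells, a rise of 2.12 (SE 0.098, limma, adjusted p = 8.93e-07). E2f7, a repressor among the E2F factors, rose by 1.56 (SE 0.092) and Depdc1a by 1.47 (SE 0.12). Fam83d, which brings casein kinase 1 to the spindle, rose by 1.25, and the kinase Nek6 by 1.11. Cdc25a, the member of the Cdc25 family that acts earliest in the cycle, fell by 1.09 and Cdca7 by 1.14, and the cohesin regulators Esco2 and Wapl stood at -1.27 and -1.07. None of 17 genes of the anaphase-promoting complex was called, beside 14.5% of all genes (limma, 1 higher and 8 lower at an unadjusted p under 0.05, where 5127 of all 22180 genes were higher and 5304 lower).

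Among 19 paralogs that serve mainly outside the mitotic cycle, 1 was called (5.26%, beside 14.5% of all genes), and 3 higher and 7 lower genes were past the p threshold alone. Ccng2, an atypical cyclin linked to cell cycle arrest, had 9.22, 8.82 and 9.12 in Pax7-GFP cells, against 5.84, 5.99 and 5.84 in ES cells, a rise of 3.17 (SE 0.12, limma, adjusted p = 2.81e-07).

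DNA replication genes, which act in the preceding S phase, were lower where the mitotic genes centred on 0. Of 43 measured genes 13 fell (30.2%) and 0 rose, beside 7.15% of all genes that fell. Among genes above the median level, 24.7% were called in either direction. At an unadjusted limma p under 0.05, 39 of the 43 were lower and 0 higher, where 5304 of all 22180 genes were lower and 5127 higher. The median difference was -0.83, against 0.0081 for the 47 mitotic genes. The largest falls were those of Orc1, a subunit of the origin recognition complex, at -2.27 and Mcm10, a replication initiation factor, at -1.62. Pax7-GFP replicate 1 was the highest sorted sample for 39.5% of them and replicate 3 for 53.5%, against 83.0% for replicate 1 among the mitotic genes. The lists share arrays and were chosen with results known, so the difference between them was not tested.

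**Figure D5:**
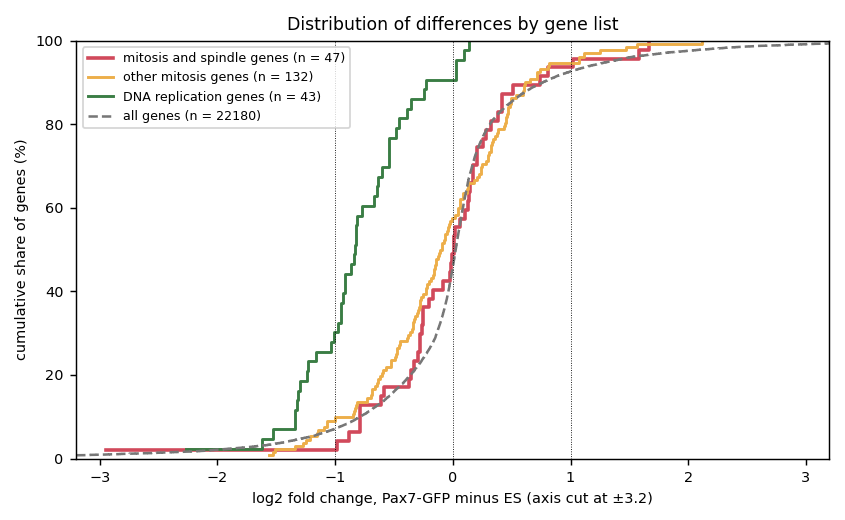
Cumulative share of genes (y axis, %) by log2 fold change, Pax7-GFP minus ES (x axis), for the 47 mitosis and spindle genes, 132 other mitosis genes, 43 DNA replication genes and all 22180 genes. The curve of the mitotic genes crosses 0 near its middle, close to that of all genes, and the replication curve lies to its left, with a median of -0.83.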

How the data were processed

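Expression was measured on single-colour arrays with biotin-labelled cRNA from 6 mouse samples, 3 of Pax7-GFP cells and 3 of ES cells, grouped and numbered by the sample titles. Per the labels' protocols the target was prepared with 2 rounds of amplification. The deposited values are the authors' log2 RMA signals (background correction, normalization and probe summary), made in R 2.12.1 per the submitters' processing notes. For RMA options and genome build, the entry is: not given in the sources used here. Background correction and double amplification can compress folds.

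Of 41345 rows, 25335 were listed in the 2022 platform annotation, 23521 with 1 symbol. Each gene was read from the brightest (by mean over 6 arrays) of its probe sets with 1 symbol, which gave 22180 genes. Other lists were matched by symbol or, failing that, by a synonym in the RefSeq gene table. Groups were compared with limma 3.58.1 in R 4.3.3 (lmFit, eBayes, two-sided, 95% intervals), with p-values adjusted by the Benjamini-Hochberg method. On simulated data for the 22180 genes the fit called 95 of 100 genes changed by 1.5, 99 of 100 changed by 3, and 0 of 21980 unchanged genes. The simulated noise was independent and normal, with the same SD in both groups. It therefore checks the code and gives no error rate for arrays with unequal spread or shared shifts. The number of arrays limits precision, and since nothing states separate cultures beyond the replicate titles, the p-values reflect sample-to-sample spread that may be technical. All 49 genes are named, and from each other list the 2 largest called rises and falls. The genes, lists and tests were chosen with earlier results of these data known. The E2F letters, the counting of motifs by gene, the paired gene differences and the distance windows for motifs were added after values were seen. Alternatives changed scaling, signal floor, dim-gene filter, probe set rule, unit, fold threshold, variance prior, array weights, replicate block and arrays included.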

Additional observations from a re-analysis of the deposited data

How the results depend on the processing

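Of the 47 genes, 44 kept their call under the 16 alternatives tried for single genes, and no called gene changed sign. The exceptions were Foxm1, Kif20a and Cdc25b. Foxm1 stood at 0.99 with median centring, 0.92 without ES replicate 1 and 0.98 without Pax7-GFP replicate 3, and was not called there or in the test against 2-fold. Kif20a was called at -1.01 with median centring, -1.04 with array weights and -1.09 without Pax7-GFP replicate 1. Cdc25b was not called in the test against 2-fold (limma, adjusted p = 0.103). Mki67 ranged from 1.61 to 1.76 and Mybl2 from -3.03 to -2.25, the smallest fall being with the mean of its probe sets.

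Thresholds moved the counts by construction. With no minimum fold 11 genes were higher, 11 lower and 0 past the p threshold alone, and 36 other mitosis genes were higher and 45 lower. With a minimum of 4-fold 0 of the 47 genes were higher (limma, 12 at an unadjusted p under 0.05), with 1 higher and 0 lower among the other mitosis genes. In the test against 2-fold 1 gene was higher and 0 past the p threshold alone, with 3 higher and 3 lower among the other mitosis genes. Lower genes numbered 2 with median centring, with array weights and when each probe set was tested, where both Mybl2 probe sets counted. Leaving out single arrays gave 2 to 3 higher genes, 1 to 2 lower genes and 12 to 23 past the p threshold alone. The median stood between -0.020 and 0.093 over all alternatives, so its sign is not settled. DNA replication genes lower numbered 37, 1 and 4 under no minimum, 4-fold and the test against 2-fold, and 11 to 16 otherwise.

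With replicate number as a block, 3 genes were higher, 1 lower and 14 past the p threshold alone. The deviations of same-numbered samples correlated at -0.11, -0.22 and 0.0069. These values show no pairing by number but, with 3 samples per group, cannot exclude one. The block changed no 2-fold call of the 47 genes. Without scanner files, background correction was not varied, and no detection calls set a limit for dim signals.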
